A study of Homo sapiens with 12 samples.

Results

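Cisplatin-treated HK-2 cells were compared with control cells across all genes, with attention to pathways, gene families and structural classes of genes. The comparison held 6 of the 12 sequenced samples, namely the 3 labelled Cisplatin and the 3 labelled Control, and was set by those labels and not by any measured value. HK-2 is an established line of human renal proximal tubular epithelial cells that was immortalized with oncogenes of human papillomavirus, which are known to lower p53 activity. The treated cells received 5 μM cisplatin, a platinum drug against tumors, for 48 h, and the control cells received water. The other 6 samples, used here only where the drugs were compared directly, were HK-2 cells exposed for 48 h to 75 mg I/mL iohexol, an iodinated contrast medium, or to 4 mM vancomycin, a glycopeptide antibiotic. All groups were grown in the same medium with serum, and poly(A) RNA was sequenced. All samples came from 1 cell line, and the labels do not say whether the 3 samples of a group were separate cultures, so the p-values measure only the spread between these samples.

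Cisplatin enters tubular cells through organic cation and copper transporters and binds the purines of DNA. Its adducts and crosslinks block DNA polymerases and stall RNA polymerase II, and a longer transcription unit offers more sites at which a polymerase can meet an adduct. Nucleotide excision repair, the Fanconi anemia pathway and homologous recombination remove such lesions, and p53 and the stress-activated kinases are the best known signalling responses to them. This is background and not a reading of these samples.

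The total count was 14235479 to 16589507 in the control samples and 14466712 to 15057150 with cisplatin. A floor of 3 counts corresponded to 0.185 to 0.229 counts per 1000000 (CPM) and covers counting error only. CPM values here take a sample's total count times its TMM factor as the library size, and that factor was 0.921 to 0.938 in the control samples and 1.08 in each cisplatin sample. The epithelial keratins KRT8, KRT18, KRT19 and KRT7 were present in every sample (KRT19, the lowest, from 42.1 to 58.6 CPM), as was the renal transcription factor PAX8. The endocytic receptor LRP2, a defining proximal tubule gene, had no count in 5 of the 6 samples, its partner CUBN stayed below 1 CPM, and the water channel AQP1 and the phosphate transporter SLC34A1 did not pass the filter on low counts. The adhesion gene CDH1 did not pass the filter either. Of the markers of other cell types, 1 of 12 leukocyte, 1 of 7 endothelial and 1 of 7 distal tubule and collecting duct genes were tested, and PTPRC, CD3E and UMOD had at most 2 counts in a sample. Of the fibroblast markers 4 of 8 were tested, so genes of that list were not absent. In bulk RNA, fewer cells of a kind and less RNA per cell cannot be told apart.

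Of 58735 genes in the table, 15876 passed the filter and were tested. A gene is called a DEG, and is said to have risen or fallen, when the adjusted p of edgeR's quasi-likelihood test was under 0.05 and the log2 fold change, cisplatin against control, was above 1 or below -1. The up-regulated DEGs numbered 1210, or 7.62% of the genes tested, and the down-regulated DEGs 1384, or 8.72%. Among protein coding genes alone 4.89% were up-regulated and 9.54% down-regulated. Without the fold threshold, 4643 genes (29.2%) were higher and 4857 (30.6%) were lower with an adjusted p under 0.05. The median log2 fold change of all tested genes was 0.0073. With library size as the scale in place of TMM this median moved to 0.22, and the share of up-regulated genes among the DEGs went from 46.6% to 64.8%, so the changes below are relative to the TMM scale. Where a list below has a count of 0 in a direction for cisplatin against control, DESeq2's Wald test, limma-voom and the unadjusted p of edgeR with the same fold threshold also gave 0 for that list. In 2553 of the DEGs, and in 10334 (65.1%) of all genes tested, the control and cisplatin samples did not overlap, and for genes given below with a value in all 6 samples the groups did not overlap unless that is stated. Each fold change below is on the log2 scale with its standard error (SE), and each group has n = 3.

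Protein coding genes changed with their span, the distance from a gene's start to its end in the count table. In the 1049 genes of up to 5 kb the median log2 fold change was 0.25, with 14.0% up-regulated and 2.96% down-regulated. The median decreased from bin to bin above 10 kb, through 0.20 at 10 to 20 kb, 0.03 at 20 to 50 kb, -0.18 at 50 to 100 kb, -0.42 at 100 to 200 kb and -0.89 at 200 to 500 kb. In the 172 genes over 500 kb it was -1.89, with 72.1% down-regulated and 1.74% up-regulated. Long genes thus lay on the low side as a class, and short genes on the high side. Of the 2555 tested protein coding genes over 100 kb, 750 fell (29.4%), against 488 of the 10424 genes up to 100 kb (4.68%). Among the shorter class, 610 rose (5.85%). Genes over 200 kb had a median of -0.98 and 90.4% of the 981 lay below 0.

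**Figure D1:**
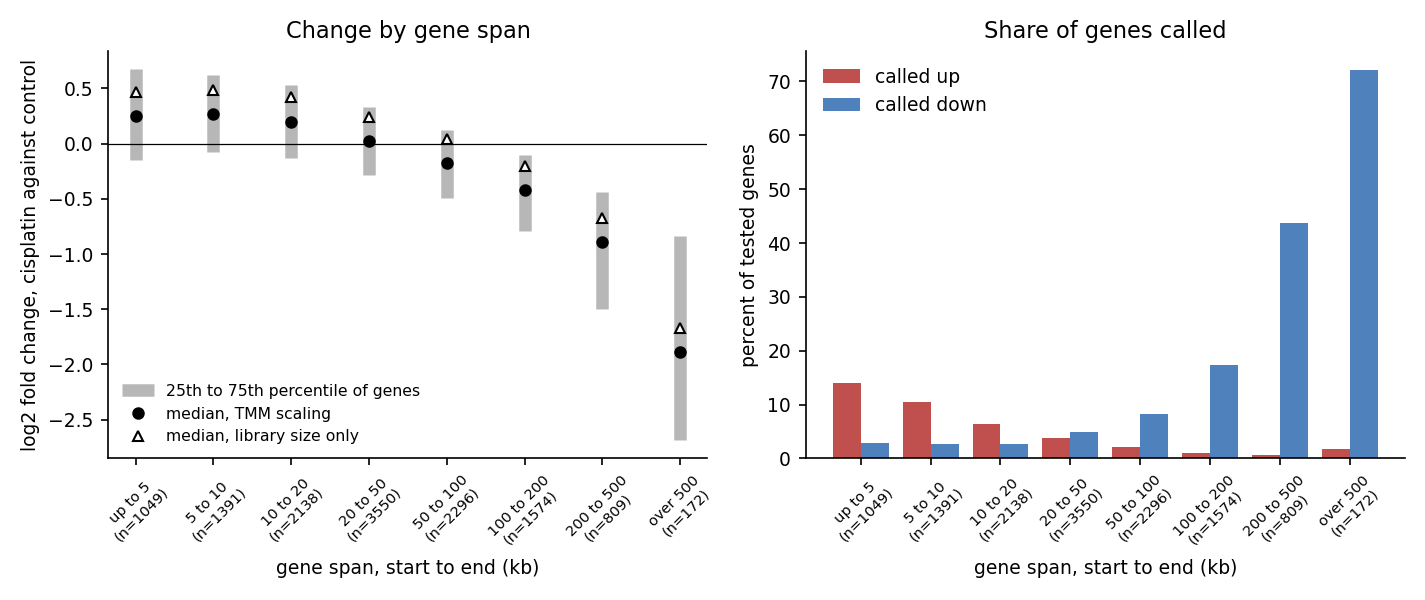
Change of protein coding genes by gene span, cisplatin against control. The left panel gives the median log2 fold change on the vertical axis per span bin in kb (filled circles with TMM scaling, open triangles with library size only) and the 25th to 75th percentile of genes as grey bars, and the right panel gives the percent of tested genes called up (red) and down (blue). The medians run from 0.25 in genes up to 5 kb to -1.89 in genes over 500 kb, where 72.1% were called down.

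Above 20 kb the medians decreased from bin to bin at each level of expression, while below it the order of the short bins differed between levels. In the low, middle and high tertiles of mean CPM the median of the genes over 500 kb was -1.89, -2.08 and -1.73, and that of the genes up to 5 kb was 0.42, 0.24 and 0.074. Over the 12979 protein coding genes Spearman's rank correlation between span and log2 fold change was -0.47, and between the length of the annotated exons and log2 fold change it was -0.30. Within tertiles of exonic length, the rank correlation with span was -0.27, -0.41 and -0.49 from the shortest to the longest tertile. These coefficients describe genes that share the same 6 libraries and are not replicates, so they carry no p. Genes with 1 exon block had a median of 0.28 (40 up, 9 down, of 301), those with 2 to 5 blocks 0.19 (246 up, 128 down, of 2383), and those with 6 or more -0.09 (349 up, 1101 down, of 10295). These classes also differed in median span, at 2.43, 8.86 and 44.7 kb, and exon number apart from span was not tested.

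The share of counts from long genes was then taken as a single value per sample. Genes over 200 kb held 6.29%, 6.07% and 6.19% of the protein coding counts in the control samples and 4.04%, 3.91% and 3.85% with cisplatin. All cisplatin samples lay below all control samples, with a difference of -2.25 percentage points and p = 0.1 in an exact two-sided permutation test, the smallest p that 3 against 3 samples allow. The iohexol samples were at 6.26% ± 0.319 (SD, n = 3) and the vancomycin samples at 4.76% ± 0.321. At this cut of 200 kb cisplatin was also below every sample of either drug, again at the smallest possible p of 0.1 in the exact permutation test. For genes over 100 kb the cisplatin and vancomycin samples overlapped, with means of 14.6% and 15.1% and p = 0.6 in the same permutation test.

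**Figure D2:**
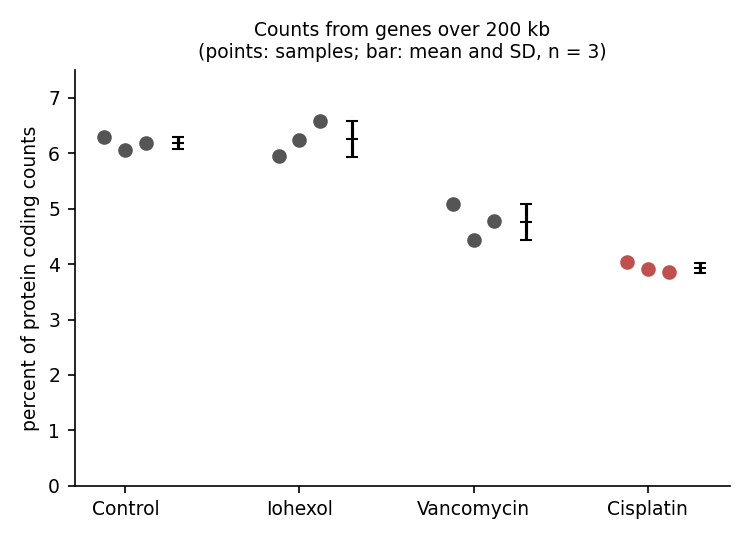
Percent of protein coding counts that came from genes over 200 kb, on the vertical axis, in each of the 12 samples, with the mean and SD of each group beside its points. The cisplatin samples (red) lie between 3.85% and 4.04%, below all other samples, and the control samples between 6.07% and 6.29%.

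Named by their level in the control samples, the highest genes over 500 kb were SPOCK1, UTRN, LPP, KCNMA1 and NAV2. LPP (chr3:188153284-188890671, 737 kb), a focal adhesion scaffold, was at 291, 268 and 273 CPM in the control samples and at 48.95, 39.9 and 40.8 CPM with cisplatin, a log2 fold change of -2.68 ± 0.079 (SE, adjusted p = 6.54e-14). KCNMA1 (chr10:76869601-77638369), a calcium-activated potassium channel, was at 222, 225 and 223 CPM and then at 50.03, 48.2 and 53.1 CPM, a change of -2.15 ± 0.065 (SE, adjusted p = 7.63e-14). SPOCK1 (chr5:136975298-137598379), a secreted proteoglycan, went from 473, 436 and 421 CPM to 114, 114 and 116 CPM. For each of these genes the lowest control sample was well above the highest cisplatin sample. The log2 fold changes of SPOCK1, NAV2 and UTRN, which code for the proteoglycan, a neuron navigator and the dystrophin relative utrophin, were -1.95 ± 0.062, -1.58 ± 0.067 and -1.34 ± 0.064, with adjusted p of 7.85e-14, 2.23e-12 and 9.15e-12. Of the 3 genes over 500 kb that rose, the protocadherin PCDH9 (chr13:66302834-67230445, 928 kb) had 2.44, 1.24 and 2.05 CPM in the control samples and 9.17, 10.02 and 8.19 CPM with cisplatin, a change of 2.27 ± 0.21 (SE, adjusted p = 7.96e-08).

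The pattern was compared with the other drugs in a fit of all 12 samples, in which each drug shares the same control samples. For protein coding genes over 200 kb the median log2 fold change was -0.99 with cisplatin, -0.02 with iohexol and -0.16 with vancomycin. Vancomycin had a span trend of its own, with medians from 0.43 in genes up to 5 kb to -0.24 in genes over 500 kb, where 22.2% fell against 4.00% of the shortest genes. The rank correlation between span and log2 fold change in that fit was -0.46 with cisplatin, -0.27 with vancomycin and -0.041 with iohexol. In the direct contrasts the median of these genes was -0.99 for cisplatin minus iohexol, with 48.8% called lower, and -0.79 for cisplatin minus vancomycin, with 42.4% called lower. Over all 17073 genes of that fit, 11.4% were called lower and 6.11% higher for cisplatin minus iohexol, and 16.2% lower and 12.2% higher for cisplatin minus vancomycin. Genes up to 5 kb had a median of 0.29 for cisplatin minus iohexol and of -0.22 for cisplatin minus vancomycin, so the short genes were placed differently against each drug.

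The gene lists below differ in the span of their members, which is therefore given where a list fell. Across lists with at least 10 tested members, those with the lowest medians were proximal tubule identity, matrix metalloproteinases, collagens and guidance genes, and those with the highest were immediate early genes and clustered histone genes.

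**Figure D3:**
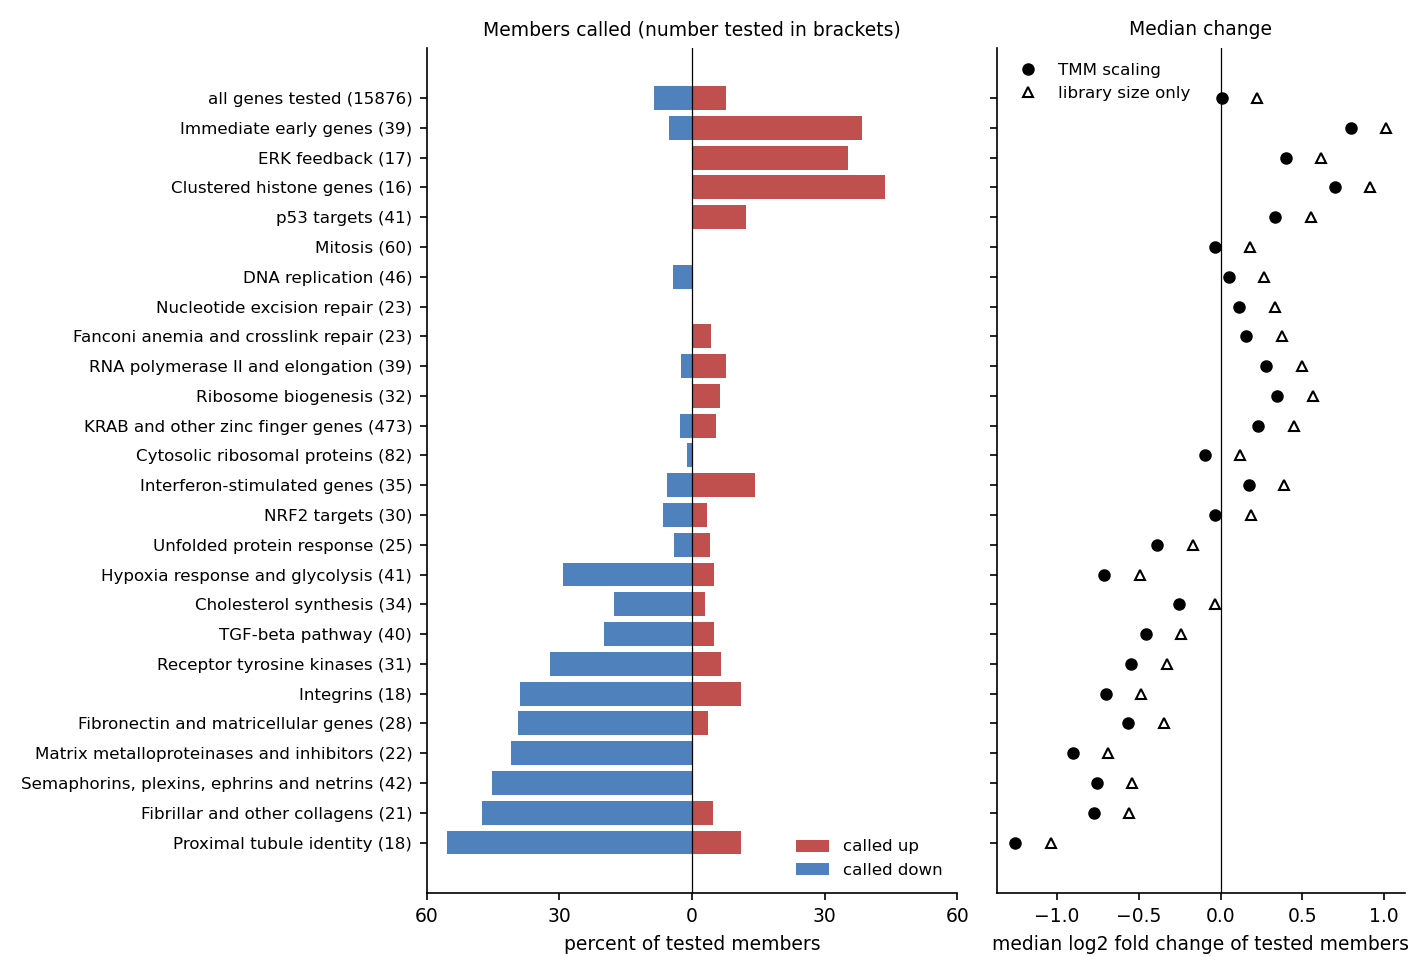
Selected gene lists, cisplatin against control. The left panel gives the percent of tested members called up (red, to the right) and down (blue, to the left), with the number tested in brackets, and the right panel the median log2 fold change with TMM scaling (filled circles) and with library size only (open triangles). Of the 39 immediate early genes 15 were called up, and of the 42 guidance genes 19 were called down, beside 7.62% and 8.72% of all genes.

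Immediate early genes are induced within minutes of a stimulus without new protein synthesis, and many were up-regulated at 48 h. Of the 39 tested, 15 rose and 2 fell (1 with library size only), and the median log2 fold change was 0.80 against 0.0073 over all genes. In the AP-1 family and its partners 5 of 12 rose, and in the EGR, IER, KLF and nuclear receptor families 10 of 27. FOS, a subunit of the AP-1 transcription factor, was at 2.06, 1.70 and 2.26 CPM in the control samples and at 16.5, 15.7 and 14.8 CPM with cisplatin. Every cisplatin sample was above every control sample, and the change was 2.96 ± 0.16 (SE, adjusted p = 6.15e-11). ARC, a synaptic immediate early gene, went from 0.763, 0.522 and 0.616 CPM to 6.07, 4.62 and 5.23 CPM (3.06 ± 0.28, adjusted p = 4.62e-08), and ATF3, a stress-induced repressor, from 23.05, 25.9 and 24.4 CPM to 73.3, 76.1 and 76.96 CPM (1.62 ± 0.079, adjusted p = 1.34e-11). EGR1, a zinc finger factor that follows growth factor signalling, was at 10.2, 10.4 and 9.58 CPM and then at 20.5, 24.7 and 22.6 CPM, a change of 1.16 ± 0.12 (SE, adjusted p = 1.55e-07).

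Not all early genes moved this way. JUN, the partner of FOS in AP-1, was at 213, 249 and 246 CPM in the control samples and 254, 254 and 248 CPM with cisplatin, and the groups overlapped (0.095 ± 0.065, adjusted p = 0.218). KLF6 and ZFP36L1, a zinc finger factor and an RNA-decay factor, fell, with log2 fold changes of -1.04 ± 0.058 and -1.23 ± 0.058. IER5, which p53 is also known to induce, rose from 40.1, 45.4 and 47.6 CPM to 126, 135 and 133 CPM (1.57 ± 0.075, adjusted p = 1.10e-11). Against iohexol, 15 of the early genes were called higher with cisplatin and 2 lower, while against vancomycin 3 were higher and 4 lower. FOS illustrates this, at 2.46 ± 0.20 (SE, adjusted p = 2.09e-09) for cisplatin minus iohexol and -1.31 ± 0.15 (SE, adjusted p = 3.24e-07) for cisplatin minus vancomycin.

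The upstream sequence of the called early genes EGR1 and MAFF is shown because each holds, in the window of 250 bases before the RefSeq transcription start (GRCh38.p14), a site of the kind that serves early induction. Capitals mark the CArG boxes, the binding element of serum response factor, in EGR1 (plus strand, chr5:138465229-138465478, 105 to 74 bases before the start) and the cyclic AMP response element TGACGTCA in MAFF (plus strand, chr22:38201744-38201993, 54 to 47 bases before the start, in 1 of the 2 windows of the gene).
EGR1: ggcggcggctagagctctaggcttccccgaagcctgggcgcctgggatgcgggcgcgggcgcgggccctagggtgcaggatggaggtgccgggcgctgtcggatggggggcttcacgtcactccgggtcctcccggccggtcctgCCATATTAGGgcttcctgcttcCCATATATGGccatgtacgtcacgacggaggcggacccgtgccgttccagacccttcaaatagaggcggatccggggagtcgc
MAFF: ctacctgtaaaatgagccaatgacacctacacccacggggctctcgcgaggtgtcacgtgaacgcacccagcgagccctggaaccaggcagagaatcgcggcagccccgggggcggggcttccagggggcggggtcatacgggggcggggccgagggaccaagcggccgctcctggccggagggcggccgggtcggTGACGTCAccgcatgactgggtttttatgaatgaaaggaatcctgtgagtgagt
Both strands were searched. A CArG box was present for 3 of 28 immediate early genes with a window (EGR1, EGR2 and SRF) and for 1.47% of the 10278 tested protein coding genes with a window, and TGACGTCA for 3 of 28 (JUND, MAFF and ZFP36L1) and 3.38%. EGR2, SRF and JUND were not called and ZFP36L1 fell, so most of these genes did not rise. MAFF, a small MAF factor named here after its values were seen, was at 37.4, 41.5 and 35.4 CPM in the control samples and at 169.9, 169.9 and 159.9 CPM with cisplatin (2.13 ± 0.074, adjusted p = 2.16e-13). A match of letters is a description and not evidence of binding.

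Some feedback genes of the ERK kinase cascade, which are themselves induced by it, rose. Of 17 tested, 6 rose and 0 fell, with a median of 0.40. DUSP6, a phosphatase that inactivates ERK, was at 49.5, 46.1 and 43.8 CPM in the control samples and at 119, 118 and 117 CPM with cisplatin (1.35 ± 0.070, adjusted p = 3.07e-11). DUSP5, a nuclear ERK phosphatase, went from 90.2, 90.8 and 90.1 CPM to 218, 217 and 229 CPM (1.29 ± 0.060, adjusted p = 7.91e-12), and the pathway inhibitor SPRY4 changed by 1.47 ± 0.11 (SE, adjusted p = 6.71e-09). The ligand HBEGF rose from 92.6, 84.7 and 88.4 CPM to 193, 186 and 185 CPM (1.09 ± 0.063, adjusted p = 1.26e-10), while AREG overlapped between the groups (192, 176 and 174 CPM and 187, 187 and 194 CPM). The receptor of these ligands, EGFR (chr7:55019021-55211628, 193 kb), was at 537, 537 and 559 CPM and then at 155, 147 and 137 CPM, a change of -1.89 ± 0.061 (SE, adjusted p = 7.85e-14). The ligand gene NRG1, 1129 kb long, changed by -1.21 ± 0.069 (SE, adjusted p = 1.14e-10). DUSP6 shares 40.5% of its exonic bases with a gene on the opposite strand, and the strand setting of the counting is not given in the sources used here.

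**Figure D4:**
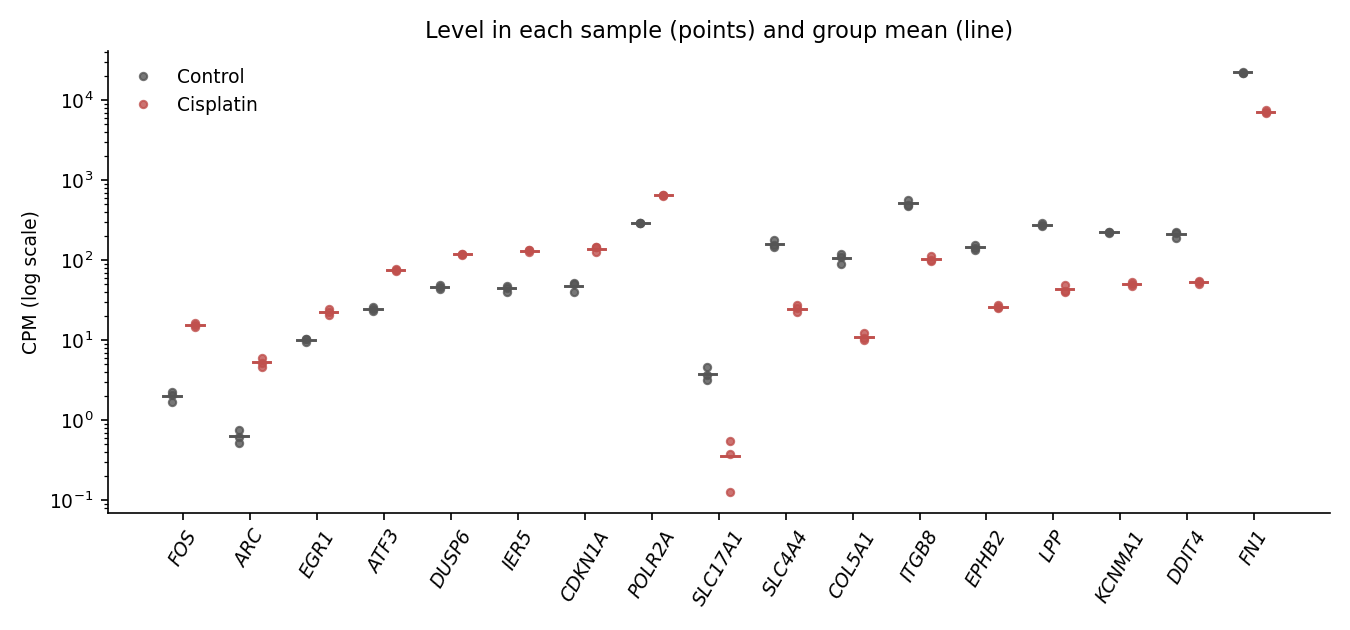
Level in CPM (log scale, vertical axis) of selected genes in each control sample (grey points) and each cisplatin sample (red points), with the group means as lines. In each gene shown the cisplatin points lie wholly above or wholly below the control points, for example FOS from 1.70 to 2.26 CPM in the control samples and from 14.8 to 16.5 CPM with cisplatin.

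The median of p53 targets lay above that of all genes. Of 41 tested, 5 rose and 0 fell, beside 7.62% and 8.72% of all genes, and with library size only 10 rose. At an adjusted p under 0.05 24 were higher and 7 lower, and the median was 0.33. CDKN1A, the cyclin-dependent kinase inhibitor p21, was at 40.1, 49.9 and 52.5 CPM in the control samples and at 127, 145 and 145 CPM with cisplatin (1.55 ± 0.090, adjusted p = 1.35e-10). TP53I3, an oxidoreductase induced by p53, went from 7.55, 9.79 and 9.58 CPM to 26.4, 30.9 and 28.9 CPM (1.67 ± 0.12, adjusted p = 2.64e-09). MDM2, the ubiquitin ligase of p53 and a common reporter of its activity, overlapped between the groups at 70.9, 66.8 and 65.7 CPM and 73.7, 71.4 and 69.3 CPM (0.077 ± 0.069, adjusted p = 0.351). Among the death effectors, PMAIP1 (NOXA) was at 0.80 ± 0.079 and BBC3 (PUMA) at -0.49 ± 0.15 on the log2 scale, with adjusted p of 1.39e-07 and 0.0121, and neither reached the fold threshold. GDF15, a secreted stress factor, was at 106, 103 and 115 CPM and 188, 184 and 194 CPM, a change of 0.81 ± 0.064.

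Few genes that repair platinum lesions were called, beside 7.62% of all genes that rose and 8.72% that fell, and the lists are small. Of 23 nucleotide excision repair genes 0 were called, with a median of 0.11. At an adjusted p under 0.05 9 were higher and 4 lower, beside 29.2% and 30.6% of all genes. Of 23 Fanconi anemia genes 1 rose and of 18 homologous recombination genes 1 fell. The gene that rose was FAAP24, a subunit of the core complex, from 6.10, 5.03 and 7.05 CPM to 13.9, 12.4 and 14.6 CPM (1.17 ± 0.15, adjusted p = 2.67e-06). The gene that fell was RAD51B (910.4 kb), a mediator of strand invasion, from 4.58, 3.07 and 3.83 CPM to 0.885, 0.963 and 1.05 CPM (-1.97 ± 0.28, adjusted p = 1.08e-05). ERCC6, which starts the transcription-coupled branch, was at 0.29 ± 0.10, BRCA1 at 0.40 ± 0.072 and FANCD2 at 0.13 ± 0.079. The checkpoint kinase genes ATM and ATR, both over 100 kb, overlapped between the groups, at 0.012 ± 0.090 and -0.045 ± 0.069.

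Few cell cycle genes were called, beside 7.62% of all genes that rose and 8.72% that fell. Of 60 mitosis genes 0 were called, and the median was -0.035 (0.18 with library size only, a change of sign, where 2 rose). At an adjusted p under 0.05 17 were higher and 18 lower, near the 29.2% and 30.6% of all genes. The mitotic kinase CDK1 was at 234, 217 and 200.3 CPM in the control samples and 292, 292 and 302 CPM with cisplatin (0.45 ± 0.063), and its cyclin CCNB1 at 225, 196 and 181 CPM and 175, 165 and 175 CPM (-0.23 ± 0.073). Of 46 replication genes 0 rose and 2 fell, namely the helicase subunit MCM6 (-1.09 ± 0.066, adjusted p = 1.96e-10) and the polymerase gene POLA1 (-1.10 ± 0.083, adjusted p = 3.81e-09, 303 kb). With library size only 3 rose and 0 fell, so the direction of these calls depends on the scale. RRM2, the small subunit of ribonucleotide reductase, was at 0.73 ± 0.066. Of 27 G1 regulators 3 fell and 0 rose (2 and 3 with library size only), among those that fell them CDK6 (232 kb), from 598, 539.6 and 535 CPM to 196, 194 and 184 CPM (-1.54 ± 0.061, adjusted p = 9.78e-13), and CCND2 (-1.41 ± 0.16, adjusted p = 6.98e-07). In the direct contrasts 20 mitosis genes were called higher with cisplatin than with vancomycin and 3 higher than with iohexol. RRM2 shares 39.000% of its 31-base words with other genes and CCND2 18.6%, which leaves their counts less certain.

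Some clustered histone genes rose in these poly(A) libraries. They encode the nucleosome proteins, and their transcripts in dividing cells normally lack a poly(A) tail. Of 71 genes 16 were tested, 7 rose and 0 fell, and the median was 0.70. HIST1H1C, a linker histone, was at 2.75, 3.66 and 3.15 CPM in the control samples and 11.1, 9.82 and 10.2 CPM with cisplatin (1.69 ± 0.17, adjusted p = 1.16e-07), and HIST1H2BN, a core histone, at 0.687, 1.37 and 0.890 CPM and 3.67, 3.53 and 3.57 CPM (1.84 ± 0.29, adjusted p = 3.05e-05). The levels were low, and with a minimum of 10 counts in every sample 3 histone genes rose. The medians of these genes were 1.06 with iohexol and 1.45 with vancomycin against the same controls, and 3 were called lower with cisplatin than with iohexol and 7 lower than with vancomycin.

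Many genes of the extracellular matrix and of cell adhesion fell. Of 21 collagen genes 10 fell and 1 rose, with a median of -0.77. Of 28 fibronectin and matricellular genes 11 fell and 1 rose (median -0.57), of 22 metalloproteinases and their inhibitors 9 fell and 0 rose (median -0.91), of 18 integrins 7 fell and 2 rose (median -0.70), and of 10 laminins 3 fell and 0 rose (median -0.70). Many of these genes are long. In the collagens 9 of 12 genes over 100 kb fell and 1 of 9 shorter ones, and in the metalloproteinases 6 of 8 and 3 of 14. In the matricellular genes 8 of 24 genes up to 100 kb fell and in the integrins 5 of 13, beside 4.68% of all protein coding genes of that span.

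COL5A1 (chr9:134641774-134844843), a fibrillar collagen chain, was at 90.8, 118 and 109 CPM in the control samples and at 12.3, 10.6 and 10.04 CPM with cisplatin (-3.27 ± 0.11, adjusted p = 1.36e-13). COL18A1, a basement membrane collagen, went from 397, 529.7 and 569 CPM to 121, 118 and 117 CPM (-2.07 ± 0.097, adjusted p = 8.25e-12). LOXL2, which crosslinks collagen, changed by -2.36 ± 0.071 (SE, adjusted p = 6.99e-14). The collagen that rose was COL12A1, from 67.6, 66.3 and 62.8 CPM to 136, 134 and 126 CPM (1.01 ± 0.067, adjusted p = 7.73e-10), so the family did not move as a unit. Its call rests on the fold threshold, with a log2 fold change of 0.97 without Control 3, 0.986 without Cisplatin 1 and 0.996 without Cisplatin 2. Short members fell too, among them SPP1 (osteopontin, 7.78 kb), from 1309, 1169 and 1139 CPM to 397, 378 and 396 CPM (-1.63 ± 0.060, adjusted p = 4.28e-13), and THBS1 (thrombospondin, 18.4 kb; -1.27 ± 0.052, adjusted p = 1.42e-12). FN1, fibronectin, held 22166, 22197 and 22706 CPM in the control samples and 7460.4, 7149 and 6949.9 CPM with cisplatin. CTGF, a matricellular target of YAP and TGF-beta, was higher but below the fold threshold, at 0.46 ± 0.055.

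Integrin ITGB8, which activates latent TGF-beta, fell from 563, 481 and 497 CPM to 114, 101 and 97.03 CPM (-2.30 ± 0.075, adjusted p = 9.82e-14), and ITGB6, which has the same known role, from 42.1, 42.6 and 36.9 CPM to 6.89, 5.26 and 5.11 CPM (-2.81 ± 0.13, adjusted p = 4.86e-12). The leukocyte integrin ITGB2 was low and rose, at 6.56, 5.55 and 7.80 CPM and 13.3, 13.3 and 15.2 CPM (1.07 ± 0.14, adjusted p = 6.18e-06). Without Control 2 it was at 0.94 and without Cisplatin 3 at 0.999, below the fold threshold. The laminin chains LAMA5 and LAMA3 changed by -1.81 ± 0.074 and -1.45 ± 0.070. Of the proteases, the collagenase MMP1 (8.24 kb) went from 32.8, 36.8 and 32.2 CPM to 8.03, 7.77 and 9.85 CPM (-1.99 ± 0.12, adjusted p = 1.69e-10) and the sheddase ADAM12 (376 kb) from 63.9, 62.5 and 63.9 CPM to 9.74, 10.9 and 9.79 CPM (-2.64 ± 0.092, adjusted p = 2.16e-13). The inhibitors TIMP1 and TIMP2 were at 0.46 ± 0.057 and -0.95 ± 0.055 and did not reach the fold threshold. In the plasminogen system the activator PLAT rose (1.496 ± 0.074, adjusted p = 1.53e-11) and the activator PLAU fell (-1.06 ± 0.062, adjusted p = 1.63e-10). N-cadherin, CDH2, fell from 292, 278 and 282 CPM to 139.7, 133 and 136 CPM (-1.06 ± 0.058, adjusted p = 6.45e-11). ITGB6, COL18A1 and PLAU share 20.6%, 16.4% and 31.1% of their exonic bases with another gene.

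Guidance genes, the semaphorins, plexins, ephrins, netrins, Slits and Robos that steer growing cells, were more often lower than higher. Of 42 tested 19 fell and 0 rose (median -0.76), 15 of 18 genes over 100 kb and 4 of 24 shorter ones, and with library size only 11 fell and 2 rose. SEMA5A (511 kb) was at 86.8, 87.7 and 84.7 CPM in the control samples and 16.4, 19.005 and 20.2 CPM with cisplatin (-2.22 ± 0.086, adjusted p = 7.41e-13), and SLIT3 (639 kb) at 13.7, 12.9 and 13.8 CPM and 1.45, 1.41 and 1.72 CPM (-3.13 ± 0.17, adjusted p = 6.15e-11). Among receptor tyrosine kinases 10 of 31 fell and 2 rose, 9 of 16 over 100 kb and 1 of 15 shorter ones. The share of short receptors that fell was near the 4.68% of all protein coding genes of that span, and with a minimum of 10 counts in every sample 6 receptors fell. EPHB2, an ephrin receptor, went from 135, 144 and 157 CPM to 26.4, 24.98 and 27.5 CPM (-2.47 ± 0.079, adjusted p = 7.85e-14), and its relative EPHB1 (663 kb) changed by -3.42 ± 0.15 (SE, adjusted p = 2.97e-12). IGF1R, the receptor of insulin-like growth factor 1, fell (-1.10 ± 0.067, adjusted p = 2.15e-10), and MET, the receptor of hepatocyte growth factor, was at -0.73 ± 0.064, short of the threshold.

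Of the phosphodiesterases and adenylyl cyclases 9 of 19 fell and 0 rose, 7 of 13 genes over 100 kb and 2 of 6 shorter ones. With library size only 5 fell, and the median went from -0.25 to -0.032. In the TGF-beta pathway 8 of 40 fell and 2 rose (median -0.46), with 3 of 11 receptors and 5 of 20 SMAD and feedback genes falling and 2 of 9 ligands rising. SMAD3, the signal transducer, fell from 392, 393 and 401 CPM to 165, 161 and 153 CPM (-1.31 ± 0.057, adjusted p = 3.44e-12), and the ligand TGFB3 rose from 3.36, 2.28 and 2.05 CPM to 10.7, 9.69 and 9.91 CPM (1.99 ± 0.19, adjusted p = 7.60e-08). LTBP1, which stores the latent ligand in the matrix, changed by -1.92 ± 0.14 (SE, adjusted p = 1.76e-09). In the Wnt pathway 6 of 37 genes fell and 3 rose, 4 of 12 genes over 100 kb and 2 of 25 shorter ones among those that fell. With library size only 3 fell and 4 rose, and the median went from -0.27 to -0.049, so the balance of this list depends on the scale. WNT5B fell (-2.52 ± 0.095, adjusted p = 5.34e-13), as did WNT5A (-1.34 ± 0.090, adjusted p = 8.18e-10), and the inhibitor DKK1 rose (1.13 ± 0.077, adjusted p = 1.09e-09). The polarity scaffold PARD3 (706 kb) fell from 217, 197 and 205 CPM to 44.5, 39.2 and 39.3 CPM (-2.33 ± 0.073, adjusted p = 7.85e-14).

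**Figure D5:**
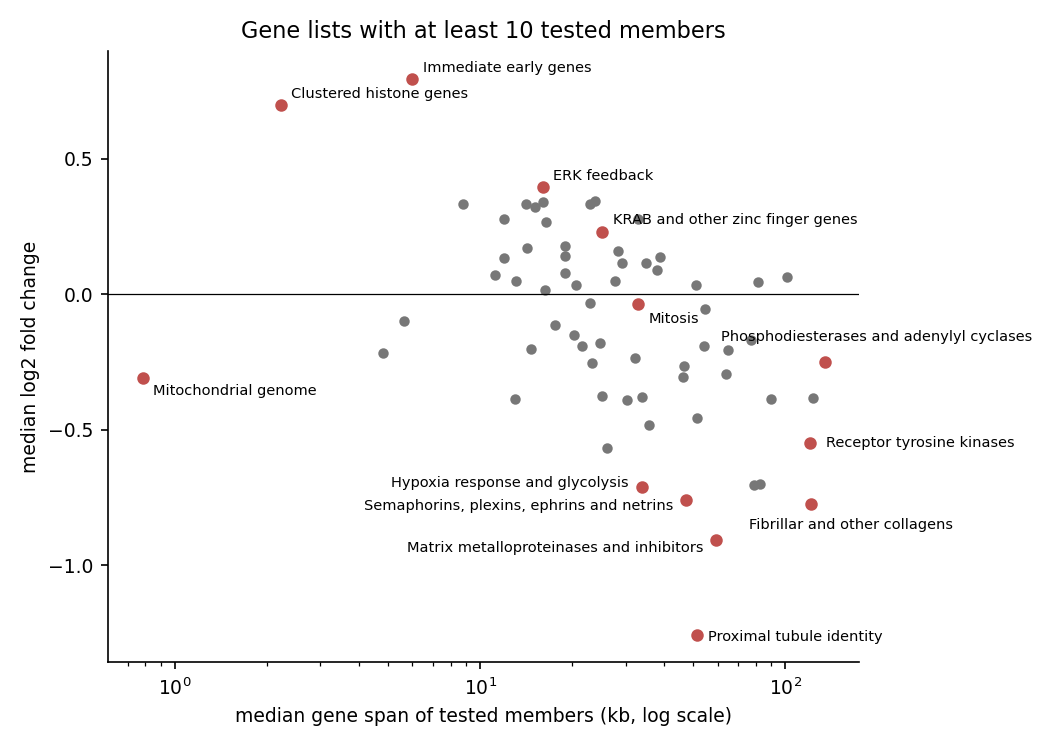
Median log2 fold change (vertical axis) against the median gene span of the tested members (kb, log scale, horizontal axis) for the gene lists with at least 10 tested members, each list a point and the named ones red. Immediate early genes (median 0.80) lie at the short end, collagens (median -0.77) at the long end, and proximal tubule identity (median -1.26) lower than lists of a like span.

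Genes of proximal tubule identity had the lowest median of the lists with at least 10 tested members. Of 18 tested 10 fell and 2 rose, with a median of -1.26 against 0.0073 over all genes, and 8 of the 16 members up to 100 kb fell. The defining endocytic receptors were at or near 0 in both groups, so the list rests on transporters, enzymes and transcription factors, and with a minimum of 10 counts in every sample 6 members fell. SLC4A4 (chr4:71062667-71572087), the basolateral sodium bicarbonate cotransporter, was at 179, 145 and 154 CPM in the control samples and 27.3, 22.5 and 24.997 CPM with cisplatin (-2.68 ± 0.092, adjusted p = 1.82e-13). PAX8, a transcription factor of renal epithelium named after its values were seen, fell from 346, 388 and 429.8 CPM to 137, 136 and 139 CPM (-1.501 ± 0.072, adjusted p = 1.02e-11). The phosphate transporter SLC17A1 was low and fell, from 3.66, 4.57 and 3.15 CPM to 0.379, 0.128 and 0.554 CPM (-3.38 ± 0.38, adjusted p = 7.38e-07). The sodium-proton exchanger SLC9A3 rose from 0.992, 1.31 and 0.890 CPM to 3.16, 3.66 and 4.25 CPM (1.78 ± 0.28, adjusted p = 2.73e-05), although it shares 41.9% of its exonic bases with another gene. The epithelial adhesion gene EPCAM fell (-1.51 ± 0.075, adjusted p = 1.69e-11), and CLDN2, the leaky claudin of the proximal tubule, from 29.5, 30.7 and 29.4 CPM to 6.14, 7.45 and 8.50 CPM (-2.02 ± 0.12, adjusted p = 2.35e-10). Epithelial markers as a list did not share this direction. Of 9 tested 2 fell and 0 rose, 4 were higher and 4 lower at an adjusted p under 0.05, and the median was 0.28. Of 13 claudins 2 fell and 1 rose, and of 11 keratin and vimentin genes 3 rose and 0 fell. Over all genes 7.62% rose and 8.72% fell. Against iohexol 10 of the tubule genes were called lower with cisplatin and 0 higher, and against vancomycin 8 lower and 3 higher.

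Of 14 tubular injury markers 1 rose and 3 fell (3 and 3 with library size only), with CDKN1A as the gene that rose. Of 14 genes of platinum uptake and export 1 rose and 2 fell, with 3 higher and 10 lower at an adjusted p under 0.05. Over all genes 7.62% rose and 8.72% fell, and 29.2% were higher and 30.6% lower at that threshold. Both lists are small, and the share that rose in each was near that of all genes. HAVCR1, the kidney injury molecule of damaged tubules, was at 207, 194 and 194 CPM in the control samples and at 78.7, 71.01 and 70.005 CPM with cisplatin (-1.43 ± 0.067, adjusted p = 8.20e-12). LCN2, neutrophil gelatinase-associated lipocalin, was low and overlapped, at 2.21, 2.41 and 3.01 CPM and 3.35, 2.76 and 2.40 CPM (0.15 ± 0.25, adjusted p = 0.613). VCAM1, an adhesion receptor of injured tubules, fell from 21.3, 20.4 and 20.4 CPM to 5.31, 5.14 and 4.49 CPM (-2.05 ± 0.13, adjusted p = 2.76e-10). The copper transporter SLC31A1, which carries cisplatin into cells, was at -0.41 ± 0.066, short of the fold threshold. Its relative SLC31A2, named after its values were seen, was the platinum gene that rose, at the low counts of 1, 5 and 3 in the control samples and 13, 16 and 16 with cisplatin (2.14 ± 0.53, adjusted p = 0.00206). The exporters ATP7B and ABCC4 fell, with changes of -1.33 ± 0.14 (SE, adjusted p = 3.23e-07) and -1.41 ± 0.081 (SE, adjusted p = 1.13e-10). The organic cation transporter SLC22A2 was not tested, with at most 2 counts in a sample. MT2A, a metallothionein that binds metals, fell from 1203, 1121 and 950.0 CPM to 327, 349 and 319 CPM (-1.72 ± 0.074, adjusted p = 2.65e-12), and 0 of 7 metallothioneins rose. HAVCR1, SLC31A1 and MT2A share 11.4%, 11.7% and 10.7% of their 31-base words with other genes.

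Many hypoxia and glycolysis genes fell, with no gene over 100 kb among them. Of 41 tested 12 fell and 2 rose, with a median of -0.71, and the 12 that fell were among the 34 members up to 100 kb, beside 4.68% of all protein coding genes of that span. With library size only 7 fell, and the median was -0.49. DDIT4, an inhibitor of mTOR induced by hypoxia and stress, was at 189, 216 and 226 CPM in the control samples and 50.5, 53.03 and 55.7 CPM with cisplatin (-1.99 ± 0.076, adjusted p = 6.71e-13). NDRG1, a hypoxia-induced gene, went from 251, 302 and 300.0 CPM to 94.4, 89.5 and 91.000 CPM (-1.64 ± 0.074, adjusted p = 4.86e-12). The factor HIF1A itself was at -0.84 ± 0.070 and its target VEGFA at -0.46 ± 0.070, both lower but short of the fold threshold. The vasodilator peptide gene ADM rose, from 12.97, 17.4 and 17.8 CPM to 34.6, 43.98 and 39.5 CPM (1.29 ± 0.12, adjusted p = 8.62e-08), against the direction of the list. DDIT4 shares 41.2% of its exonic bases with an antisense gene. Against vancomycin 24 of the list were called lower with cisplatin and 0 higher, and against iohexol 9 lower and 1 higher.

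Few stress genes were called, beside 7.62% of all genes that rose and 8.72% that fell. The chaperones of the endoplasmic reticulum and of the cytosol leaned opposite ways. Of 30 NRF2 targets 1 rose and 2 fell (median -0.034, or 0.18 with library size only, where 2 rose). The target that rose was OSGIN1, from 5.19, 5.87 and 6.09 CPM to 22.3, 23.8 and 24.8 CPM (2.04 ± 0.12, adjusted p = 2.15e-10), while the classic targets NQO1 and HMOX1 were at 0.19 ± 0.072 and -0.50 ± 0.094. SLC7A11, the cystine importer that limits glutathione synthesis, fell from 41.9, 33.03 and 30.6 CPM to 12.1, 12.3 and 11.8 CPM (-1.54 ± 0.12, adjusted p = 7.25e-09). In the unfolded protein response 1 of 25 rose and 1 fell (2 and 0 with library size only), but 16 were lower and 6 higher at an adjusted p under 0.05 (median -0.39), 12 of the 17 chaperones among the former, and the chaperone HSPA5 was at -0.67 ± 0.055. Of 20 cytosolic heat shock genes 2 rose and 0 fell, and 13 were higher and 6 lower at that threshold (median 0.32), beside 29.2% and 30.6% of all genes. The gene of the unfolded protein response that rose was PPP1R15A, the regulatory subunit that restores translation after stress, from 43.1, 59.3 and 56.4 CPM to 143, 157 and 151 CPM (1.503 ± 0.093, adjusted p = 2.80e-10). Among the 31 ATF4 and amino acid stress genes 1 rose and 5 fell (2 and 3 with library size only), with ATF4 at -0.24 ± 0.064 and TRIB3 at -0.81 ± 0.064. ATF4 shares 43.6% of its 31-base words with other genes, which leaves its counts less certain. PDK4, which diverts pyruvate from oxidation, rose from 31.9, 23.6 and 24.5 CPM to 102, 90.7 and 105 CPM (1.90 ± 0.10, adjusted p = 4.08e-11), and PPARGC1A, a coactivator of mitochondrial genes, fell (-1.32 ± 0.095, adjusted p = 2.21e-09). Of 34 cholesterol genes 6 fell and 1 rose, with the exporter ABCA1 among those that fell (-1.36 ± 0.056, adjusted p = 1.73e-12). The number that fell was 2 with library size only, and the median went from -0.25 to -0.037.

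Lists of the expression machinery were spread on both sides of the median of all genes, with few calls. POLR2A, the largest subunit of RNA polymerase II, was at 292, 291 and 289 CPM in the control samples and 658, 649 and 637 CPM with cisplatin (1.16 ± 0.052, adjusted p = 5.23e-12), and of 39 polymerase II and elongation genes 3 rose and 1 fell (median 0.28), near the 7.62% of all genes that rose. HEXIM1, the inhibitor of the elongation kinase P-TEFb, rose from 68.8, 86.6 and 86.2 CPM to 171, 183 and 191 CPM (1.17 ± 0.082, adjusted p = 1.52e-09). CDK9, the kinase of that complex, was at 0.28 ± 0.076, and AFF1 (206 kb), a scaffold of the super elongation complex, fell (-1.13 ± 0.060, adjusted p = 4.02e-11). For POLR2A the direct contrasts were 1.22 ± 0.10 (SE, adjusted p = 3.50e-09) against iohexol and 1.43 ± 0.10 (SE, adjusted p = 2.15e-10) against vancomycin. Ribosome biogenesis genes (2 of 32 up, 0 down, median 0.35), proteasome subunits (1 of 37 up, 0 down, median 0.27) and mitochondrial ribosomal proteins (3 of 78 up, 2 down, median 0.28) had medians above that of all genes. On the scale of library size only, 4 ribosome biogenesis genes rose, and 7 mitochondrial ribosomal proteins rose and 0 fell. The spliceosome (1 of 41 up, 0 down, median 0.016) and the translation factors (1 of 52 up, 1 down, median 0.036, or 3 up and 0 down with library size only) were near it. The 82 cytosolic ribosomal proteins had a median of -0.099, which turned to 0.12 with library size only, and 1 of them fell (0 with library size only). In the 13 protein coding genes of the mitochondrial genome 0 were called, 2 were higher and 9 lower at an adjusted p under 0.05, and the median was -0.31 (1 rose with library size only).

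Zinc finger genes of the KRAB and related families, most of them repressors, had a median above that of all genes, with a share that rose near that of all protein coding genes. Of 473 tested 26 rose and 13 fell, against 4.89% and 9.54% of all protein coding genes, 199 were higher and 64 lower at an adjusted p under 0.05, and the median was 0.23. On the library size scale 47 rose and 6 fell. ZNF517 rose from 16.03, 15.3 and 19.9 CPM to 52.4, 49.1 and 53.1 CPM (1.59 ± 0.10, adjusted p = 4.96e-10), while the long ZNF618 (180.3 kb) fell from 55.3, 58.4 and 61.9 CPM to 13.6, 14.96 and 14.8 CPM (-2.02 ± 0.091, adjusted p = 5.09e-12). Against vancomycin 75 of the family were called higher with cisplatin and 13 lower.

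Inflammatory and interferon genes were mixed, and their counts stand beside 7.62% of all genes that rose and 8.72% that fell. Of 35 interferon-stimulated genes 5 rose and 2 fell (median 0.17, and 1 fell with library size only). ISG15, an interferon-induced ubiquitin-like protein, rose from 27.9, 41.1 and 32.7 CPM to 88.4, 96.1 and 101 CPM (1.49 ± 0.11, adjusted p = 1.98e-09). Of 10 chemokine genes 1 rose and 2 fell, with log2 fold changes from -3.05 to 3.85. CCL20, a chemokine for dendritic and T cells, fell from 40.9, 42.6 and 38.9 CPM to 4.81, 5.39 and 4.56 CPM (-3.05 ± 0.12, adjusted p = 5.34e-13), while CXCL8, a neutrophil chemokine, was at 0.61 ± 0.057, short of the threshold. Of 15 NF-kB pathway genes 0 were called (3 rose with library size only), with the inhibitor NFKBIA at -0.85 ± 0.065 and the feedback gene TNFAIP3 at 0.92 ± 0.064. Of 11 Toll-like receptor and adaptor genes 1 rose and 2 fell (2 and 2 with library size only), with a median of 0.078. The gene that rose was MYD88, the adaptor of these receptors, from 24.1, 24.2 and 26.6 CPM to 63.3, 68.1 and 63.2 CPM (1.38 ± 0.082, adjusted p = 1.79e-10). Against vancomycin 18 interferon-stimulated genes were called lower with cisplatin and 0 higher.

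The last lists were those of cell death and polyamines, all small, beside 7.62% of all genes that rose and 8.72% that fell. Of 15 genes of the BCL2 family 0 rose (1 with library size only) and 1 fell. The gene that fell was BCL2, an inhibitor of apoptosis and the only tested member over 100 kb, from 51.9, 58.4 and 56.4 CPM to 19.2, 19.5 and 19.6 CPM (-1.52 ± 0.087, adjusted p = 1.04e-10). Of 21 caspase and necroptosis genes 0 rose and 1 fell, namely GSDME, a pore-forming gasdermin (-1.35 ± 0.089, adjusted p = 6.76e-10), and CASP8 was at 0.67 ± 0.087. Neither list of cell death genes held a larger share of falling genes than all genes did. Of 10 polyamine genes 2 rose, the synthetic enzyme ODC1 from 226, 230.3 and 206 CPM to 433, 464 and 462 CPM (1.04 ± 0.061, adjusted p = 1.38e-10) and the catabolic enzyme SAT1 from 197, 184 and 179 CPM to 409, 409 and 412 CPM (1.14 ± 0.058, adjusted p = 2.29e-11). Without Control 3 ODC1 was at 0.98, below the fold threshold. Of 14 housekeeping genes 0 were called, with a median of -0.18 that turned to 0.037 with library size only, and ACTB, a common reference, was at 6419, 6584 and 6321 CPM in the control samples and 3241, 3301 and 3285 CPM with cisplatin (-0.98 ± 0.043, adjusted p = 3.31e-12). ACTB shares 22.7% of its 31-base words with other genes.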

How the data were processed

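RNA of HK-2 cells was sequenced in 12 samples, whose groups, doses and time came from the sample labels. Per the labels, poly(A) RNA and an NEBNext Ultra kit were used. The authors deposited raw counts for each gene. The submitters' processing notes name CASAVA 1.8, fastp, HISAT2 2.0.5, featureCounts 1.5.0-p3 and DESeq2 1.20.0. Neither the strand setting nor the annotation release is given in the sources used here, but all 58735 genes had the start and end of GENCODE 29 (GRCh38).

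Cisplatin was tested against control with edgeR 4.0.16 in R 4.3.3 (TMM, filterByExpr with a minimum of 10 and a total of 15 counts, glmQLFit and glmQLFTest, Benjamini-Hochberg adjustment over the genes tested), and each SE was derived from the log2 fold change and F. Direct contrasts between drugs came from a fit of all 12 samples. Promoter windows were RefSeq's, and sharing of 31-base words between genes came from the GENCODE transcripts. The steps were tested on simulated counts. Alternatives were limma-voom (limma 3.58.1), DESeq2 1.42.0, RLE factors, library size only, other filters and thresholds, the replicate block and leaving out each sample.

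The members and lists were chosen with earlier results of these data known. Genes named are those marked in the lists for their role, up to 2 called genes per list and direction with the largest change among those with a mean of at least 1 CPM and no overlap between the groups, the 5 genes over 500 kb with the highest control level, and the called member with the largest change of each family described. A gene outside this rule is named as such, and some genes and 1 list it covers are not reported here. Plots used matplotlib 3.10.9 (Python 3.11.15).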

Additional observations from a re-analysis of the deposited data

How the results depend on the processing

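Most values kept their direction and their side of the threshold. With a minimum of 10 counts in every sample the DEGs numbered 1691 in place of 2594 and the up-regulated ones 654 in place of 1210, while 3 histone genes rose and 6 receptor tyrosine kinases and 6 proximal tubule genes fell. That filter removes genes near 0 in either group. With library size only, 1842 genes rose, and 11 guidance genes and 7 hypoxia genes fell. For cisplatin minus iohexol, 578 genes were higher and 1294 lower with the minimum of 10 counts, and for cisplatin minus vancomycin 1221 were higher with that minimum and 3457 with library size only, beside 1044, 1943 and 2089.

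The median log2 fold change of genes over 200 kb was -0.98. It was -0.76 with library size only, -0.88 with the minimum of 10 counts, -0.94 with all biotypes, and -1.32, -0.89 and -0.86 in the low, middle and high tertiles of mean CPM. Leaving out each sample gave -1.02 to -0.97. The coefficient between span and log2 fold change, -0.47, was -0.38 with all genes with at least 1 count and -0.43 with all biotypes. It was -0.48 to -0.43 on leaving out each sample, with -0.43 reached without Control 1. The difference in the share of counts was -4.93 percentage points for genes over 100 kb and -0.39 for genes over 500 kb. The cause of these shifts was not tested.

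Of the genes named, ATM changed sign with all genes with at least 1 count (-0.011) and ranged from -0.045 to 0.088 on leaving out each sample, and ATR was at 0.17 with library size only. Neither was called. With library size only, KLF6, MCM6, POLA1, CDH2, PLAU, IGF1R, NRG1 and AFF1 lay between -0.82 and -0.99 and were no longer called, and GDF15, PMAIP1, TNFAIP3 and KRT18 passed the fold threshold. The calls of COL12A1, ITGB2 and ODC1 depended on single samples as given above. Of 78 lists the median of 13 changed sign with library size only. Of the counts of genes per list and direction under each alternative, 191 moved by over 1.5 times and 2149 did not. The latter include counts of 0 that stayed at 0, which say little about stability. The list medians were less stable. Under the alternatives 303 of them, from 74 lists, changed sign or moved by at least the SD of that median between the cisplatin samples, and 747 did not. Leaving out each sample gave 2597 to 2736 DEGs.

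Same-numbered samples of the groups did not deviate together (correlations 0.0684, 0.0445 and 0.0583), so the numbers were not taken to pair them. With the replicate number as a block, 2604 DEGs were called, 1215 up and 1389 down, and no count above moved by over 1.5 times. Replicate samples differed by more than sampling noise (chi-square over its degrees of freedom 2.34 to 10.8). The highest values, 8.03 and 10.8, were those of Control 1 with the other control samples. Control 2 and Control 3 gave 3.24, and the cisplatin pairs 2.34 to 2.66. At totals of 14235479 to 16589507 counts, genes below the floor of 3 counts could not be compared.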

Other observations

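Transcripts that do not code for protein were more often up-regulated than protein coding genes. Of 604 long intergenic RNA genes 167 rose and 36 fell (median log2 fold change 0.49), and of 835 antisense genes 196 rose and 35 fell (median 0.40), while of 12979 protein coding genes 635 rose and 1238 fell (median -0.04). Long intergenic RNAs held 0.284% to 0.306% of the counts in the control samples and 0.426% to 0.431% with cisplatin, and antisense genes 0.251% to 0.275% and 0.373% to 0.375%, so the groups did not overlap. Of 26 bidirectional promoter RNAs 7 rose and 1 fell, and of 465 processed pseudogenes 53 rose and 16 fell. Antisense counts depend on the strand setting, and that part was not tested. Short protein coding genes of low level also rose often. In the low tertile of mean CPM 22.6% of those up to 5 kb rose, and 17.8% of those at 5 to 10 kb, beside 27.6% of long intergenic and 23.5% of antisense genes. The classes were not matched for span or level, so a difference apart from these was not tested.

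Families of protein coding genes that share a symbol stem, with at least 15 tested members, were ranked by the share up-regulated minus the share down-regulated. They were chosen by these values, so the counts are a description with no test. Among the lowest were SEMA (10 of 18 fell), COL (10 of 22 fell and 1 rose), PDE (6 of 16 fell), TSPAN (3 of 15 fell) and TBC (6 of 31 fell). The highest were HIST (7 of 16 rose), DUSP (5 of 20 rose), CYP (5 of 19 rose and 1 fell), SMIM (4 of 20 rose), AC clone names (5 of 31 rose) and HSPA (2 of 15 rose). The medians of PDE and TBC, -0.21 and -0.19, turned to 0.0081 and 0.028 with library size only.

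In the RefSeq windows of 54 mitosis genes, TTTGAA, part of the cell cycle homology region, was present for 53.7% and CCAAT for 79.6%, beside 11.6% and 41.5% of all tested protein coding genes with a window, on either strand. These are the letters found in genes that peak in mitosis, and 0 of the 60 mitosis genes were called by edgeR.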
